A study of Xenopus laevis with 12 samples.

Results

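Prolactin, its receptor and 3 further genes known to respond to or act beside its signalling were followed in RNA from the whole heads of tadpoles of the African clawed frog, Xenopus laevis. The symbols prl.1, prl.2, prlr, cish, socs2 and bcl6 gave 11 genes of the 37018 counted, each with an ending .L or .S for the homeologs (the pair of copies left by the species' genome duplication); prl.2 was present as prl.2.S. Of these 11 genes, 9 had enough counts to be tested, and both prl.1 genes did not. The genes prl.2.S (gene 108697263), cish.S (gene 108715831), bcl6.L (gene 495412) and bcl6.S (gene 446862) were chosen because they differed between treated and control heads over both stages. Their treatment differences are therefore given as a description, with no test. The other 7 genes were taken as homeologs or pathway relatives of these. The homeologs prlr.L (gene 373618), prlr.S (gene 373812), cish.L (gene 108714605), socs2.L (gene 108711062), socs2.S (gene 734276), prl.1.L (gene 446320) and prl.1.S (gene 734391) make up that remainder.

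Control heads came from wild-type tadpoles, and treated heads from tadpoles whose faces were malformed after exposure to thioridazine, a phenothiazine antipsychotic known as a dopamine receptor blocker. Its concentration was 90 µM, per the labels' protocols, and exposure ran from Nieuwkoop and Faber (NF) stage 14 to stage 26. Embryos of both groups were held at 18 °C during that window and at 14 °C before and after it, so the drug was no longer given when heads were taken at NF stages 45 and 47. There were 4 groups (control or treated, NF 45 or NF 47) with 3 libraries apiece. The labels call them biological replicates without naming clutches or the number of heads in each, so the p-values reflect only how far these samples differ among themselves, in part perhaps for technical reasons.

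Prolactin is a pituitary hormone that binds a receptor of the cytokine receptor class. The receptor activates the kinase JAK2 and the transcription factor STAT5, and among the genes that STAT5 switches on in mammals are CISH and SOCS2, which encode inhibitors that damp the same pathway. BCL6 is a transcriptional repressor that binds DNA motifs resembling those of STAT5, and STAT5 lowers its transcription in mammalian cells. In mammals, dopamine from the hypothalamus holds prolactin release down through the D2 receptor. In amphibian larvae, prolactin is known for opposing thyroid hormone in cultured tissues and for its rise late in metamorphosis. A further prolactin gene outside mammals, for which the name prl.2 is used, is known in fish and chicken for expression outside the pituitary. That prl.2.S is its counterpart is taken from the symbol alone, and sequences were not compared.

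The libraries held 11998636 to 16933777 counts, and replicates within a group had Spearman correlations of 0.979 to 0.989. Levels are given as CPM, read counts relative to the library total after TMM scaling, which evens out composition between libraries. Markers of head tissues were abundant in every library, with summed levels of at least 2490 CPM for photoreceptors, 2183 CPM for neurons, 5833 CPM for skeletal muscle and 2196 CPM for cartilage. Liver markers varied far more than any of these, from 69.2 to 1786 CPM between libraries. In whole heads, fewer cells of a type and less RNA per cell cannot be told apart.

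Among the members, prl.2.S and cish.S were higher in treated heads of both stages, both bcl6 homeologs were lower, and the receptor homeologs and prl.1 gave no such separation. The level of prl.2.S was 2.26-fold that of controls at stage 45 and 2.27-fold at stage 47, and cish.S was 2.51-fold and 1.84-fold. For bcl6.L the ratio of treated to control was 0.696 at stage 45 and 0.646 at stage 47, and for bcl6.S it was 0.649 and 0.73. Over both stages, 37 of 27050 genes (0.137%) were called higher and 2 (0.00739%) lower by edgeR at an adjusted p under 0.05. The 2 lower genes were bcl6.L and bcl6.S, and this is the comparison that chose the 4 members, so nothing is read from it here. With 1 library left out in turn, the number called lower lay between 0 and 3. The split depended on the fit: 330 higher and 269 lower with the replicate block within each stage, 99 and 22 with the block over both stages, and 110 and 37 in DESeq2.

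**Figure D1:**
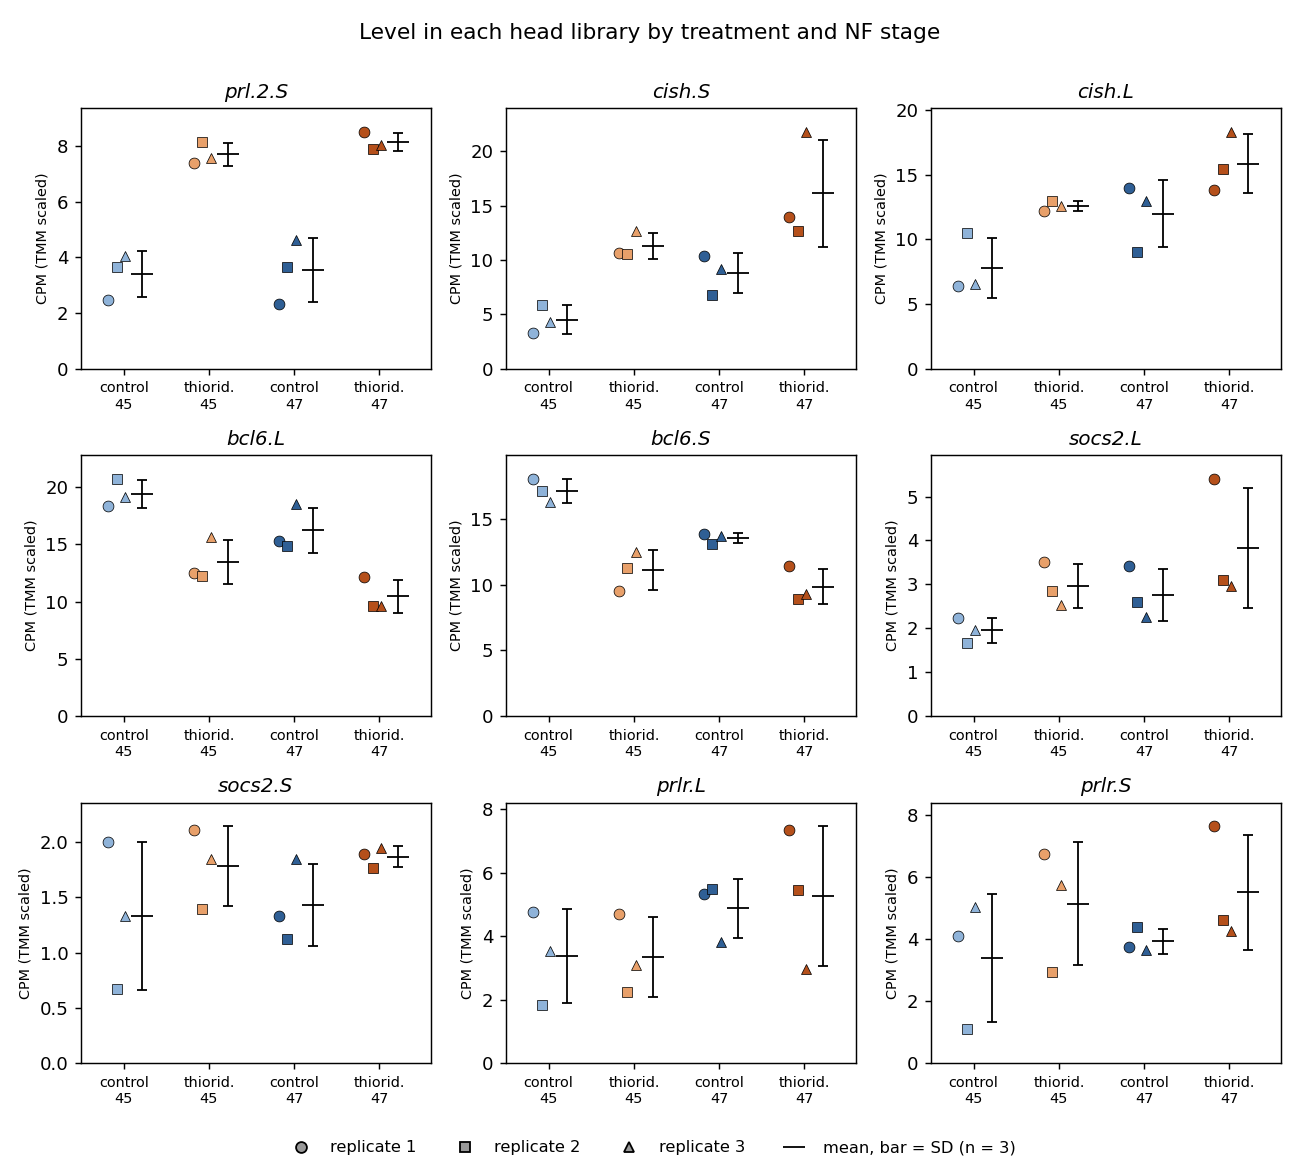
Level (CPM, TMM scaled) of the 9 tested members in each head library, by treatment and NF stage. Symbols are replicate numbers, and the bars to the right of each group are the mean and SD of 3 libraries. All treated libraries of prl.2.S lie between 7.38 and 8.51 CPM and all control libraries between 2.33 and 4.64 CPM, while the groups of both prlr homeologs overlap at each stage.

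The prolactin genes themselves differed sharply in whether they were detected. The homeologs prl.1.L and prl.1.S, which carry the name of pituitary prolactin, had 11 and 7 reads in all 12 libraries together, with at most 3 and 2 reads in any library. These counts do not exceed the limit that 3 counts set, which was 0.173 to 0.254 CPM depending on the library, so no difference between groups was detectable at this depth.

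The other prolactin gene, prl.2.S, was detected in every library with 28 to 126 reads. At stage 45 it measured 2.46, 3.66 and 4.05 CPM in control replicates 1, 2 and 3, and 7.38, 8.15 and 7.56 CPM in treated replicates 1, 2 and 3. At stage 47 it measured 2.33, 3.66 and 4.64 CPM in the controls and 8.51, 7.89 and 8.05 CPM in treated heads. Every treated library lay above every control library of either stage, and control replicate 1 was the lowest control at both stages. Set against controls of the same stage only, a looser condition, 0.651% of tested genes were higher without overlap at both stages. The group means were 3.39 ± 0.827 and 7.7 ± 0.403 CPM at stage 45 and 3.54 ± 1.16 and 8.15 ± 0.317 CPM at stage 47 (mean ± SD, n = 3, control and treated in turn). The log2 difference between treated and control heads was 1.17 (SE 0.24) at stage 45 and 1.18 (SE 0.23) at stage 47.

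In order of level, the groups ran from stage 45 controls through stage 47 controls and treated stage 45 heads to treated stage 47 heads. Only the step from stage 47 controls to treated stage 45 heads separated neighbouring groups without overlap. Within the 6 pairs of equal stage and replicate number, 4.28% of tested genes were higher in the treated library of each pair. The gene prl.2.S was so by 0.78 to 1.81 on the log2 scale. The largest differences were those of replicate 1, 1.53 at stage 45 and 1.81 at stage 47, where the control was lowest.

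**Figure D2:**
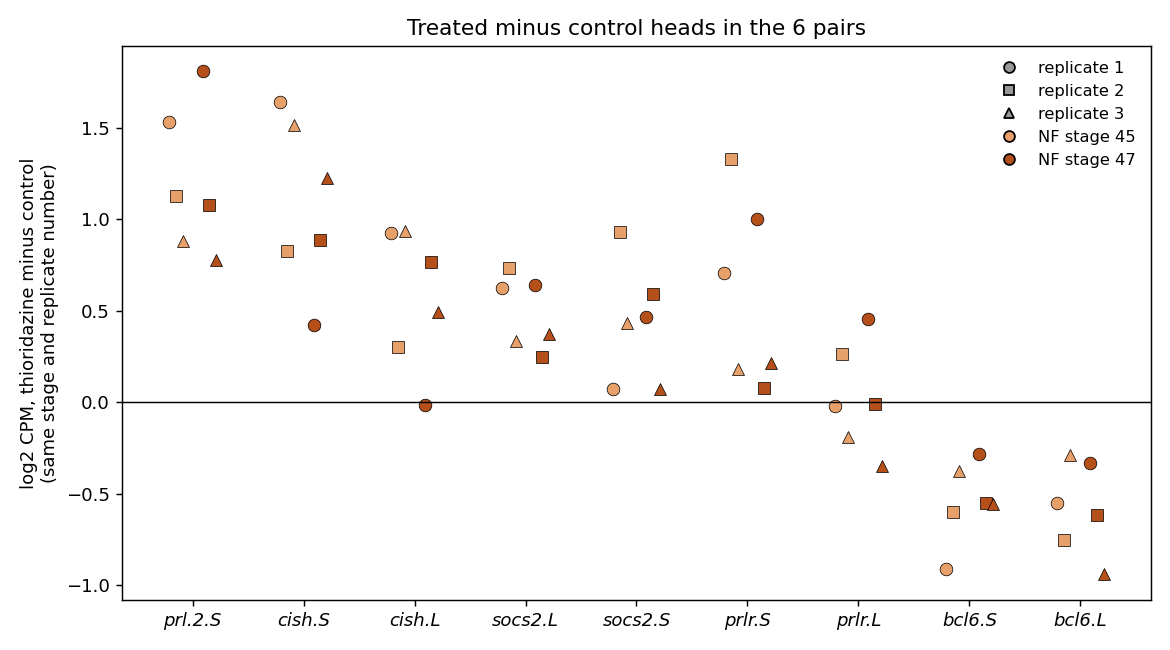
Log2 CPM of the treated library minus that of the control library of equal stage and replicate number, for the 9 tested members. Each point is 1 pair, its shape gives the replicate number and its shade the stage. All 6 pairs lie above 0 for prl.2.S, cish.S, socs2.L, socs2.S and prlr.S, and all 6 lie below 0 for bcl6.L and bcl6.S. Of all tested genes, 4.28% were higher and 3.57% lower in 6 of 6 pairs.

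The summed markers of pigment cells, like prl.2.S, were higher in every treated library than in every control library. Unlike prl.2.S, their mean fell from stage 45 to stage 47, from 556 to 462 CPM in controls and from 912 to 865 CPM in treated heads. The 17 pigment marker genes summed to 526 to 612 CPM in controls and 813 to 967 CPM in treated heads at stage 45, and to 427 to 523 and 737 to 1065 CPM at stage 47. Of the 15 that could be tested, 14 were higher over both stages, with a median log2 difference of 0.73 against 0.01 over all genes. Of these 15, 8 passed, against 0.144% of all tested genes. The marker list was chosen with earlier results of these data known. Pituitary marker sums overlapped at both stages, although the treated library was the higher in 3 of 3 pairs at stage 45 and in 5 of 6 pairs in all. The 18 genes of that list summed to 132 to 164 CPM in controls and 162 to 187 CPM in treated heads at stage 45, and to 158 to 210 and 197 to 233 CPM at stage 47. Of the 11 that could be tested, 4 were higher and 7 lower over both stages (median log2 difference -0.12), and 0 passed (edgeR adjusted p under 0.05).

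Within the pituitary list, the pomc homeologs, which encode the precursor of corticotropin and melanotropin, were higher on average in treated heads but did not pass (the genes named here were chosen after their values were seen). The level of pomc.L in treated and control heads was 48.4 ± 4.92 and 33.3 ± 3.79 CPM at stage 45 and 58.2 ± 4.83 and 45.3 ± 9.81 CPM at stage 47 (n = 3 each; edgeR adjusted p over both stages 0.155). That of pomc.S was 42.1 ± 7.70 and 27.7 ± 5.90 CPM at stage 45, and 58.5 ± 14.9 and 39.2 ± 5.70 CPM at stage 47. Treated libraries of pomc.L lay above controls without overlap at stage 45 (lowest 43.2 against highest 35.7 CPM). At stage 47 they did so narrowly (53.39 against 53.33 CPM). Of all tested genes, 0.651% were higher without overlap at both stages. Those of pomc.S did not overlap at stage 45 (33.3 against 32.0 CPM) and overlapped at stage 47. The mean pituitary sum was 177 in treated and 149 CPM in control heads at stage 45, and 216 and 190 CPM at stage 47. At both stages its rise was no larger than that of the pomc homeologs together, so the rest of the list was not higher in sum. The growth hormone gene gh1.L measured 3.9 ± 0.0314 and 4.11 ± 0.864 CPM at stage 45 and 4.49 ± 0.735 and 6.19 ± 1.99 CPM at stage 47 (treated and control, n = 3 each; log2 difference over both stages -0.26, SE 0.17, edgeR adjusted p = 0.896). The factor pou1f1.L, which drives the prolactin, growth hormone and thyrotropin genes in mammals, stayed at or below 0.252 CPM in every library. The part of pigment or pituitary cells in the prl.2.S difference was not tested.

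**Figure D3:**
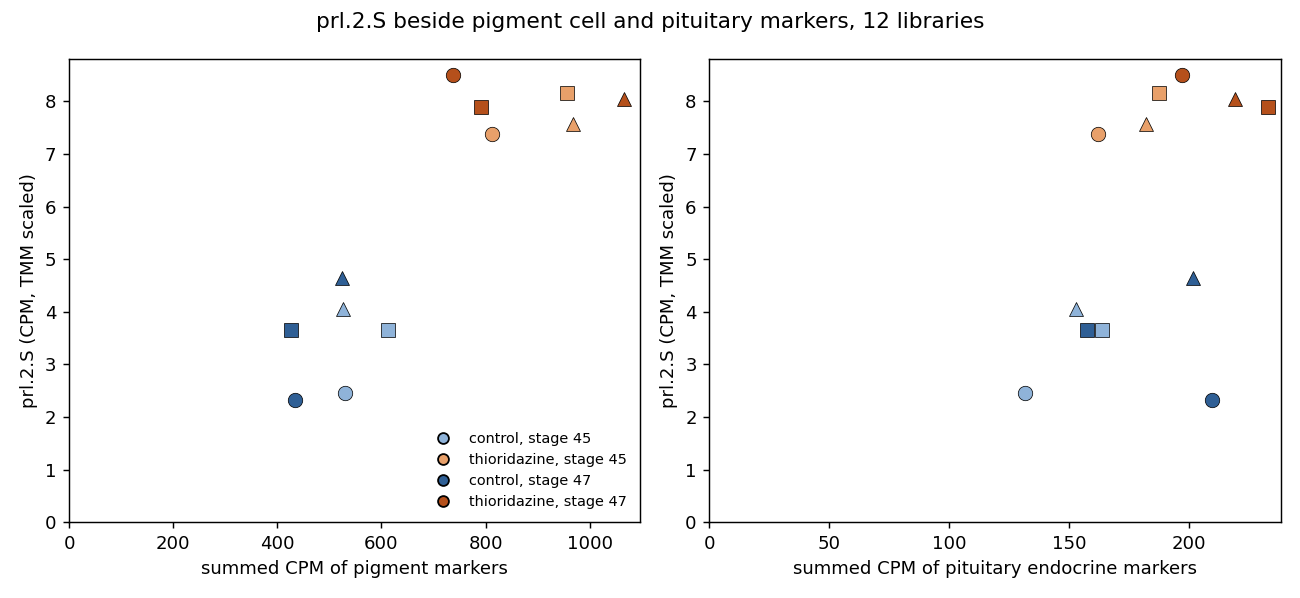
Level of prl.2.S (CPM) against the summed CPM of the pigment cell markers (left) and of the pituitary endocrine markers (right), 1 point per library, with colour for the group and shape for replicates 1 (circle), 2 (square) and 3 (triangle). Treated libraries, at 737 to 1065 CPM of pigment markers, stand apart from controls, at 427 to 612 CPM, whereas the pituitary sums of treated and control libraries overlap, although the treated sum is the higher in 5 of 6 pairs. At both stages the rise in the mean pituitary sum is no larger than that of the pomc homeologs together.

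The genes whose log2 CPM over the 12 libraries was most like that of prl.2.S included genes of pigment cells. Among 26278 named genes, the highest Pearson correlations were with ednrb2.S (0.93), an endothelin receptor of the pigment lineage, LOC108701416 (0.92), slc2a7.L (0.92), tspan36.L (0.91) and LOC108702493 (0.89). The gene ednrb2.S is also among the pigment markers summed above. The gene tspan36.L, whose zebrafish counterpart marks pigment cells, measured 5.88 CPM on average in controls and 15.2 CPM in treated heads. These libraries share the treatment difference. The 5 genes were also picked on a correlation that already includes the spread within groups, so nothing further is read from the next values. With the group means taken out, the correlations were 0.41 for ednrb2.S, 0.47 for LOC108701416, 0.72 for slc2a7.L, 0.62 for tspan36.L and 0.49 for LOC108702493, and 0 of these 5 genes were among the 5 most alike.

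The receptor genes did not separate the treatments. The homeolog prlr.L measured 4.77, 1.83 and 3.53 CPM in control and 4.71, 2.23 and 3.07 CPM in treated replicates 1, 2 and 3 of stage 45. At stage 47 it measured 5.32, 5.49 and 3.81 CPM in controls and 7.36, 5.46 and 2.97 CPM in treated heads. The groups overlapped at both stages, and 2 of 6 pairs were higher in the treated library. The log2 difference over both stages was 0.05 (SE 0.26, 95% interval -0.52 to 0.62, edgeR adjusted p = 0.997), so a change of either sign within that interval is not told apart from 0.

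The homeolog prlr.S measured 4.08, 1.08 and 5.03 CPM in control and 6.75, 2.93 and 5.72 CPM in treated replicates 1, 2 and 3 of stage 45, and 3.74, 4.37 and 3.63 against 7.63, 4.62 and 4.24 CPM at stage 47. The groups overlapped at both stages although the treated library was the higher in 6 of 6 pairs, by 0.08 to 1.33 on the log2 scale; 4.28% of tested genes were higher in 6 of 6 pairs. Over both stages the log2 difference was 0.53 (SE 0.30, 95% interval -0.12 to 1.18, edgeR adjusted p = 0.838). With the replicate number as a block within each stage, the edgeR adjusted p was 0.0897, which did not pass.

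For both receptor homeologs at stage 45, replicate 2 was the lowest library among controls and among treated heads. The same held for ghr.L and ghr.S, the growth hormone receptor, and for stat5b.L and stat5b.S, a STAT5 factor that acts below both receptors, so for 6 of 6 genes, a group put together after its values were seen. Of all tested genes, 24.1% had replicate 2 lowest in both groups at stage 45. The level of stat5b.L was 11.5, 4.83 and 10.9 CPM in control and 11.3, 6.97 and 11.1 CPM in treated replicates 1, 2 and 3. Among the marker sums of that stage, cartilage was also lowest in replicate 2 of both groups (3202 CPM in control and 3082 CPM in treated heads). Those of skeletal muscle, neurons, red blood cells and pituitary were highest in replicate 2 of both groups. The other sums were neither in both groups, with liver at 98.5, 458 and 241 CPM in control and 756, 472 and 69.2 CPM in treated replicates 1, 2 and 3. The part of tissue content in the low replicate 2 values was not tested.

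The gene cish encodes an inhibitor of cytokine receptor signalling, and cish.S was higher in treated heads of both stages. At stage 45 cish.S measured 3.31, 5.91 and 4.34 CPM in control and 10.6, 10.6 and 12.7 CPM in treated replicates 1, 2 and 3. At stage 47 it measured 10.4, 6.79 and 9.22 CPM in controls and 14.0, 12.7 and 21.8 CPM in treated heads. Treated and control libraries did not overlap at either stage, although stage 47 controls came close to treated stage 45 heads. The group means were 4.52 ± 1.31 and 11.3 ± 1.19 CPM at stage 45 and 8.8 ± 1.84 and 16.1 ± 4.93 CPM at stage 47 (control and treated, n = 3). The log2 difference was 1.33 (SE 0.25) at stage 45 and 0.88 (SE 0.23) at stage 47, and the 6 pairs lay between 0.42 and 1.64. Of all tested genes, 4.28% were higher in 6 of 6 pairs. In order of mean level, the groups of cish.S ran from stage 45 controls through stage 47 controls and treated stage 45 heads to treated stage 47 heads. The first step was free of overlap. The other steps were so by a narrow margin with TMM and overlapped with plain library totals, where stage 47 controls reached 10.24 CPM against 10.18 CPM for the lowest treated stage 45 library, and treated stage 45 heads reached 12.7 CPM against 12.3 CPM for the lowest treated stage 47 library. Myeloid markers were higher in treated heads in 16 of 17 tested genes over both stages (median log2 difference 0.23, 0 passing in edgeR). Their sums were 154 ± 17 and 191 ± 25.9 CPM at stage 45 and 211 ± 29 and 245 ± 29.9 CPM at stage 47 (control and treated, n = 3), higher in 5 of 6 pairs. Sums of epidermis and pituitary markers were also higher in 5 of 6 pairs, and those of pigment cells in 6 of 6. Of 14 tested epidermis genes, 8 were higher and 6 lower over both stages, with 1 passing in edgeR. The part of any of these cells in the cish.S difference was not tested.

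The other homeolog, cish.L, was not chosen on its own treatment difference. It was included as the homeolog of cish.S, which was chosen on this contrast, so its treatment values are not independent of that choice. It measured 6.38, 10.5 and 6.53 CPM in control and 12.2, 13.0 and 12.6 CPM in treated replicates 1, 2 and 3 of stage 45, where the groups did not overlap. At stage 47 it measured 14.0, 9.04 and 13.0 CPM in controls and 13.8, 15.5 and 18.3 CPM in treated heads, which overlapped with TMM and not with plain library totals. The log2 difference was 0.70 (SE 0.21) at stage 45 and 0.41 (SE 0.20) at stage 47, with edgeR adjusted p-values of 0.604 and 0.9998. The treated library was the higher in 5 of 6 pairs. Over both stages the log2 difference was 0.55 (SE 0.14) (edgeR adjusted p = 0.253). With the replicate number as a block over both stages the edgeR adjusted p was 0.141. With it as a block within each stage the edgeR adjusted p was 0.0101. That blocked fit called 599 genes over both stages (2.21%) and also cish.L at stage 45 (adjusted p = 0.0384), where it called 268 genes (0.991%).

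The homeologs of cish did not differ by the same amount. The ratio of cish.S to cish.L reads within a library was 0.518, 0.563 and 0.664 in control and 0.868, 0.817 and 1.0 in treated replicates 1, 2 and 3 of stage 45. At stage 47 the control ratios were 0.744, 0.752 and 0.711, and the treated ones 1.01, 0.821 and 1.19. The ratio was higher in treated heads without overlap at both stages, a description only, since cish.S was chosen on this contrast. The share of all homeolog pairs whose ratio separates in this way was not computed. For bcl6 the corresponding ratios overlapped at stage 45, at 0.888 ± 0.0838 in controls and 0.828 ± 0.0819 in treated heads, and did not overlap at stage 47, at 0.844 ± 0.0885 for controls against 0.945 ± 0.0263 for treated heads (n = 3 each). For prlr the mean ratio was also higher in treated heads, at 1.54 ± 0.288 against 0.957 ± 0.427 in controls at stage 45 (n = 3 each). At stage 47 it was 1.1 ± 0.297 against 0.817 ± 0.126 (n = 3 each), and the groups overlapped at both stages. Reads that match both homeologs could be split or dropped by the counting, which leaves the level of a single homeolog uncertain. With the homeologs summed, the ratio of treated to control for cish was 1.94 at stage 45 and 1.54 at stage 47.

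**Figure D4:**
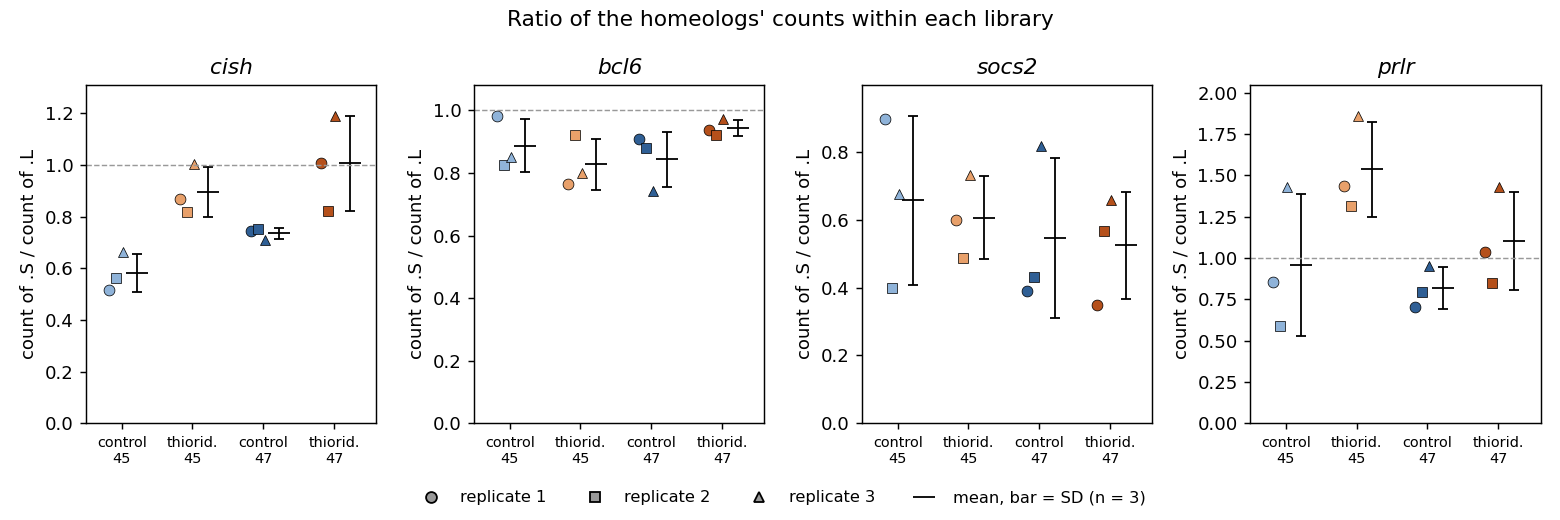
Reads of the .S homeolog divided by reads of the .L homeolog within each library, for cish, bcl6, socs2 and prlr, by treatment and NF stage (mean and SD of 3 libraries beside the points; the dashed line marks a ratio of 1). For cish the treated libraries, at 0.817 to 1.19, lie above the controls, at 0.518 to 0.752. The socs2 and prlr groups overlap at both stages, with the prlr mean higher in treated heads at each.

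The genes most like cish.S over the 12 libraries were pgm3.L (Pearson correlation 0.97), bri3.S (0.95), its own homeolog cish.L (0.95), LOC108699507 (0.94) and dmrta1.L (0.93). With the group means taken out, the correlations were 0.81 for pgm3.L, 0.82 for bri3.S, 0.85 for cish.L, 0.79 for LOC108699507 and 0.65 for dmrta1.L. Of these 5 genes, 0 were then among the 5 most alike. They were picked on a correlation that already includes the spread within groups, so nothing further is read from these values. The gene pgm3 encodes an enzyme of amino sugar synthesis. Its .L homeolog ranged from 27.5 to 37.6 CPM over all libraries.

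The other inhibitor of the pathway, socs2, was detected at lower read counts. The homeolog socs2.L measured 2.23, 1.66 and 1.97 CPM in control and 3.51, 2.86 and 2.52 CPM in treated replicates 1, 2 and 3 of stage 45, and 3.41, 2.6 and 2.26 against 5.4, 3.11 and 2.97 CPM at stage 47. The groups did not overlap at stage 45 and overlapped at stage 47. It was higher in the treated library of 6 of 6 pairs, by 0.25 to 0.73 on the log2 scale. Of all tested genes, 4.28% were higher in 6 of 6 pairs. The log2 difference of socs2.L over both stages was 0.54 (SE 0.20, edgeR adjusted p = 0.535, and 0.0901 with the replicate block within each stage). The homeolog socs2.S, with 8 to 31 reads in a library, was also higher in 6 of 6 pairs, by 0.07 to 0.93 on the log2 scale. Its groups overlapped at both stages, and its log2 difference over both stages was 0.39 (SE 0.25, edgeR adjusted p = 0.88, and 0.345 with the replicate block within each stage).

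Of the 5 tested members that the treatment contrast did not choose, 0 passed in edgeR at stage 45 (0% of all tested genes called), at stage 47 (0.0739%) or over both stages (0.144%), and 1, cish.L, did so at stage 45 and over both stages with the block within each stage, though at stage 47, where that fit called 0.632%, none did. Without adjustment, 1 of the 5, cish.L, was under 0.05 at stage 45, as were 5.33% of all tested genes. Over both stages it was 2 of the 5, cish.L and socs2.L, against 6.9%. At stage 45, 2 of the 5 lay above controls without overlap, against 4.19% of all tested genes, and at stage 47 it was 0 of 5 against 4.78% (1 of 5, cish.L, when levels were scaled to plain library totals without TMM). These 5 genes are 3 families, and homeologs are not independent of each other. The cish family was included through cish.S, chosen on this contrast, so cish.L adds no independent support.

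The repressor gene bcl6 was lower in treated heads in both homeologs. At stage 45 bcl6.L measured 18.4, 20.7 and 19.1 CPM in control and 12.5, 12.3 and 15.7 CPM in treated replicates 1, 2 and 3. At stage 47 it measured 15.3, 14.9 and 18.5 CPM in controls and 12.2, 9.66 and 9.58 CPM in treated heads. Controls lay above treated heads without overlap at both stages, while treated stage 45 heads and stage 47 controls overlapped. The log2 difference was -0.52 (SE 0.14) at stage 45 and -0.63 (SE 0.15) at stage 47.

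The homeolog bcl6.S measured 18.1, 17.1 and 16.3 CPM in control and 9.56, 11.3 and 12.5 CPM in treated replicates 1, 2 and 3 of stage 45, and 13.9, 13.1 and 13.8 against 11.4, 8.9 and 9.32 CPM at stage 47. Here too no treated library reached the controls of its stage. The log2 difference was -0.62 (SE 0.14) at stage 45 and -0.45 (SE 0.14) at stage 47. Of all tested genes, 5.36% lay below controls without overlap at stage 45 and 4.82% at stage 47, 0.547% did so at both stages, and 3.57% were lower in 6 of 6 pairs, figures from which nothing is read for genes chosen on this contrast. All 6 pairs were lower for each homeolog, by 0.29 to 0.94 in bcl6.L and 0.28 to 0.91 in bcl6.S on the log2 scale. In order of level, the groups of both homeologs ran from treated stage 47 heads through treated stage 45 heads and stage 47 controls to stage 45 controls. For bcl6.S the step between the treated groups was the only one to overlap, and for bcl6.L it was the only one that did not. That separation of bcl6.L was 12.2 against 12.3 CPM and was lost with plain library totals (12.5 against 11.8 CPM). With plain totals the stage 47 and stage 45 controls of bcl6.L separated instead (highest 18.4 against lowest 19.4 CPM).

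The gene most like bcl6.L over the 12 libraries was bcl6.S (Pearson correlation 0.94, and 0.69 with the group means taken out). Next for bcl6.L came slc23a3.S (0.90), tagln.S (0.89), an actin-binding protein of smooth muscle, bcat1.L (0.89) and arid5b.S (0.88). For bcl6.S they were LOC108711011 (0.92), kcnn1.L (0.89), tfap2d.L (0.86) and cxxc4.L (0.86). With the group means taken out, these were 0.75, 0.73, 0.42 and 0.50 for bcl6.L, and 0.76, 0.59, 0.037 and 0.63 for bcl6.S. For each homeolog, 0 of the 5 genes were then among the 5 most alike. These genes too were picked on a correlation that includes the spread within groups, so nothing further is read from the values. Skeletal muscle markers were lower in treated heads in 19 of 22 genes over both stages, with a median log2 difference of -0.25 and 0 passing. Their summed level was 7192 to 10650 CPM in controls and 5833 to 7632 CPM in treated heads at stage 45, and 7137 to 9451 and 6531 to 8099 CPM at stage 47. Liver markers were lower in 22 of 23 genes (median -0.37, 0 passing), with sums of 98.5 to 458 CPM in controls and 69.2 to 756 CPM in treated heads at stage 45, and 861 to 1786 against 120 to 764 CPM at stage 47, where the groups did not overlap. At stage 45 the mean liver sum was the higher in treated heads, 432 against 266 CPM, and the treated library was the higher in 2 of 3 pairs. Over both stages, neuron markers were lower in 19 of 20 genes (median -0.13, 0 passing), and their sum was lower in the treated library of 6 of 6 pairs. Lymphoid markers, the cells in which BCL6 is best known in mammals, summed to 7.03 to 15.3 CPM in all libraries, with 12 of 18 genes under 1 CPM throughout. The part of these cells in the bcl6 difference was not tested.

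From stage 45 to stage 47, a comparison that did not choose the members, cish.S rose in control heads. Its log2 difference was 0.96 (SE 0.25, edgeR adjusted p = 0.0358), from 4.52 to 8.8 CPM, without overlap of the groups. It was the 1 call among 9 tested members, where 6.24% of all tested genes were called and 3.03% were called higher. The call was lost when any of control replicates 1 and 3 of stage 45 or 1, 2 and 3 of stage 47 was left out (adjusted p 0.117, 0.115, 0.139, 0.0501 and 0.0832), and when only the control groups were fitted (0.0691). The homeolog cish.L measured 7.8 ± 2.33 and 12 ± 2.61 CPM in stage 45 and stage 47 controls (n = 3 each) and did not pass in edgeR (log2 difference 0.62, SE 0.21, adjusted p = 0.0905). It passed in DESeq2 (adjusted p = 0.0474) and without control replicate 2 of stage 45 (0.0225). With the homeologs summed, cish had an adjusted p of 0.0479.

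In treated heads none of the 9 tested members passed between the stages in edgeR (smallest adjusted p 0.189, for bcl6.L), where 4.86% of all tested genes were called. The log2 difference there was 0.51 (SE 0.23) for cish.S and 0.08 (SE 0.22) for prl.2.S, and in controls it was 0.07 (SE 0.24, adjusted p = 0.905) for prl.2.S. The interval of that last value ran from -0.45 to 0.59.

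Whether the treatment difference itself changed between the stages was tested as an interaction, which passed for 0 of 9 members and 0 of 27050 genes in edgeR. Without adjustment, 575 genes and no member were under 0.05, and DESeq2 called 2 genes. With the replicate block within each stage, edgeR called 27 genes and no member. For prl.2.S the change from stage 45 to stage 47 was 0.01 (SE 0.33, 95% interval -0.71 to 0.73 on the log2 scale). For cish.S it was -0.45 (SE 0.34, interval -1.17 to 0.27), for bcl6.L -0.11 (SE 0.21, interval -0.55 to 0.33) and for bcl6.S 0.17 (SE 0.20, interval -0.25 to 0.59).

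The remaining genes of the pathway that were found under their listed symbols gave no call for treatment. For the first list below, 32 of 35 symbols were found, and the others were not tested. In the list of kinases, STAT factors, SOCS proteins, phosphatases and growth factors that act with the prolactin and growth hormone receptors, 33 of 56 tested genes were higher and 23 lower over both stages. The median log2 difference was 0.04, against 0.01 over all genes, and 0 passed in edgeR at either stage, over both stages or with the block within each stage. At an unadjusted p the smallest belonged to pim1.S, a kinase gene that STAT5 induces in mammals. It measured 30.6 ± 0.572 against 26.9 ± 0.445 CPM at stage 45 and 24.5 ± 0.339 against 21.6 ± 1.64 CPM at stage 47 (treated against control, n = 3 each; edgeR adjusted p over both stages 0.505).

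Between stages, 3 genes of that list fell in controls (pias3.S, pias1.L and socs7.S). In treated heads 2 fell (pias3.S and pias1.L) and 1, jak3.L, rose. These 3 of 56 genes in each case compare with 6.24% of all tested genes called in controls and 4.86% in treated heads, so the shares are near the background. The inhibitor of STAT signalling pias3.S had the largest fall, by 1.02 on the log2 scale in controls (SE 0.19, edgeR adjusted p = 0.00806) and by 0.90 in treated heads (SE 0.19, adjusted p = 0.0169). The rise of jak3.L in treated heads was from 0.491 ± 0.212 to 1.31 ± 0.201 CPM (n = 3 each, edgeR adjusted p = 0.0477). In controls its log2 difference was 0.66 (SE 0.38, adjusted p = 0.341). For socs7.S the log2 difference in treated heads was -0.26 (SE 0.095, adjusted p = 0.129). The interaction passed for neither gene. The stage calls in this and the following lists were singled out after their values were seen.

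Among other cytokine receptors, 6 of 11 tested genes were higher and 5 lower in treated heads over both stages (median log2 difference 0.02), and 0 passed in any treatment comparison. The gene csf2rb.S had the smallest p of these (log2 difference 0.46, SE 0.22, edgeR adjusted p = 0.736). In control heads 2 rose from stage 45 to 47, the granulocyte colony-stimulating factor receptor csf3r.L, by 1.18 on the log2 scale (SE 0.25, edgeR adjusted p = 0.0154), and the erythropoietin receptor epor.L, by 0.78 (SE 0.21, adjusted p = 0.0384). These were 2 of 11 genes, where 6.24% of all tested genes were called. All 11 were higher at stage 47 in controls (median log2 difference 0.57, against -0.01 over all genes). In treated heads 10 of 11 were (median 0.31). In treated heads 0 of 11 passed in edgeR, with log2 differences of 0.23 (SE 0.24, adjusted p = 0.672) for csf3r.L and 0.0086 (SE 0.21, adjusted p = 0.99) for epor.L. The interaction passed for none of the 11 in edgeR, with or without the replicate block within each stage. A different stage change in control and treated heads was therefore not shown for these genes. Myeloid markers summed to 143 to 174 CPM in stage 45 controls and 179 to 234 CPM in stage 47 controls, and to 170 to 220 and 225 to 279 CPM in treated heads. Red blood cell markers, a list that includes epor, summed to 1668 to 3117 CPM in stage 45 controls and 3750 to 4572 CPM in stage 47 controls. In treated heads they summed to 2181 to 3677 and 2865 to 4130 CPM. The part of these cells in the stage changes was not tested.

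Partners and opponents of bcl6 were higher in 9 and lower in 14 of 23 tested genes over both stages (median log2 difference -0.02), with 0 passing in any treatment comparison. The zinc finger gene zbtb16.S had the smallest p, at 3.23 ± 0.795 against 1.97 ± 0.0959 CPM at stage 45 and 3.56 ± 0.118 against 2.79 ± 0.828 CPM at stage 47 (treated against control, n = 3 each; edgeR adjusted p over both stages 0.492).

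Genes that control prolactin transcription or release were higher in 15 and lower in 13 of 28 tested genes over both stages (median log2 difference 0.01), and 0 passed in any treatment comparison. The dopamine receptor gene drd4.S had the smallest p, at 2.06 ± 0.168 against 1.45 ± 0.256 CPM at stage 45 and 1.79 ± 0.499 against 0.997 ± 0.168 CPM at stage 47 (treated against control, n = 3 each; edgeR adjusted p over both stages 0.395). The D2 receptor genes, whose product thioridazine blocks, showed log2 differences of 0.01 (SE 0.18) for drd2.L and -0.15 (SE 0.20) for drd2.S over both stages. The peptide gene vip.S, a stimulator of prolactin release in birds and mammals, rose between stages in controls (by 1.22 on the log2 scale, SE 0.29, edgeR adjusted p = 0.026) and in treated heads (by 1.16, SE 0.30, adjusted p = 0.0406). The transcription factor gene gata2.L fell in controls (by 0.59 on the log2 scale, SE 0.15, edgeR adjusted p = 0.0347). In treated heads its log2 difference was -0.45 (SE 0.15, adjusted p = 0.112), which did not pass. Of the 28 genes, 1 was called higher and 3 lower between stages in controls, where 6.24% of all tested genes were called. In treated heads vip.S was the 1 of 28 called, against 4.86% of all tested genes.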

How the data were processed

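RNA of whole heads was sequenced in 12 libraries as single-end 100 bp reads. Each library's deposited file gives whole-number counts of reads for every gene, not normalized by the authors. Tools named in the submitters' processing notes are HISAT2, Trimmomatic, DESeq2 and HTSeq; for versions, build and annotation, nothing is given in the sources used here. Gene identifiers were named from the table of Xenopus_laevis_v10.1, which matched 33597 of 37018; no coordinates are given.

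The tests used edgeR 4.0.16 under R 4.3.3 (robust quasi-likelihood fit, TMM, filterByExpr, 27050 genes, all 12 libraries, 1 coefficient per group, Benjamini-Hochberg adjustment within a contrast, threshold 0.05). For log2 CPM a prior count of 2 was added. The code was tested on simulated data. Intervals and the limit of 3 counts cover the model's or counting error only.

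The labels number the replicates but do not say that equal numbers pair treated and control libraries. A pairing by number is therefore assumed, and libraries of unequal number were not compared. Between libraries of equal stage and number, deviations from the group means correlated across genes by 0.336, 0.586 and 0.326 at stage 45. At stage 47 the correlations were 0.18, 0.225 and 0.471. Between stages some were under 0.1 (0.0141 to 0.562). The main fit did not use the pairing, so its SEs, intervals and adjusted p-values are those of an unpaired comparison. The fit with the replicate block within each stage did use it. Members and lists were chosen with earlier results of these data known. List symbols were matched exactly, and those spelled otherwise, stat3 and stat5a among them, found no gene and were not tested. The symbols found were 32 of 35 (prolactin and growth hormone receptor pathway) and 9 of 16 (other cytokine receptors). They were 14 of 17 for bcl6 partners and opponents, and 21 of 23 for prolactin control. In each list, genes called for treatment (up to 3), or else the one with the smallest p over both stages, are named. Likeness is the Pearson correlation of log2 CPM over 12 libraries, 5 genes per member. DESeq2 1.42.0, other scalings, filters and blocks, summed homeologs and leaving out each library were tried. Some stage results of the list on prolactin control are not reported here.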

Additional observations from a re-analysis of the deposited data

How the results depend on the processing

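No member's log2 difference changed sign under another tool, scaling, filter or block. Leaving out 1 library turned some small values, with ranges for prlr.L of -0.35 to 0.28 (treatment, stage 45), -0.21 to 0.40 (stage 47), -0.12 to 0.20 (both stages) and -0.18 to 0.47 (interaction). For the other interactions the ranges were -0.20 to 0.25 (prl.2.S), -0.48 to 0.33 (prlr.S), -0.45 to 0.068 (socs2.L), -0.40 to 0.26 (socs2.S) and -0.23 to 0.017 (bcl6.L). Between stages in controls they were -0.17 to 0.28 (prl.2.S), -0.22 to 0.59 (prlr.S) and -0.20 to 0.47 (socs2.S), and in treated heads -0.21 to 0.35 (prlr.S), -0.070 to 0.20 (socs2.S). Over both stages prl.2.S stayed within 1.07 to 1.30, cish.S within 0.97 to 1.22, bcl6.L within -0.64 to -0.52 and bcl6.S within -0.60 to -0.49.

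The number of genes called moved more. With the replicate block over both stages it was 16 (treatment, stage 45), 51 (stage 47), 121 (both stages), 3068 (stage, controls) and 2704 (stage, treated heads). With the replicate block within each stage it was 268, 171, 599 and, for the interaction, 27. DESeq2 called 77, 69, 147, 1998 (stage, treated heads) and 2 (interaction), and a fit of only the control groups 660. Leaving out 1 library gave 0 to 9 (stage 45), 0 to 24 (stage 47), 16 to 43 (both stages), 429 to 1768 (stage, controls) and 392 to 1738 (stage, treated heads). Over both stages the count fell under 39 by more than 1.5 times without control replicate 1 of stage 45 (16), treated replicate 3 of stage 45 (24) and control replicates 1 (17) and 2 (21) of stage 47. Between stages it was lowest without control replicate 1 (429) and treated replicate 1 (392) of stage 47. Neither block changed a call of a member tested for it other than cish.L. At 0 to 3 reads per library, depth limits prl.1 most.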
